A study of Canis lupus familiaris with 16 samples.

Results

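PDGFRL and PIK3R1 are a pair of genes grouped here under restraint of growth signals. That role is proposed for PDGFRL and is only part of what the PIK3R1 product does. The RNA levels of both genes were described in every library of a study of canine meningioma. These genes are 2 of the 24580 Ensembl genes in the deposited table. Both were chosen because they stand on the study's list of 83 genes underexpressed in meningiomas, and the identifiers on that list (ENSCAFG00000006953 for PDGFRL and ENSCAFG00000007626 for PIK3R1) were matched to the table. The lower level in meningiomas is therefore what selected them, and it is given below as a description without a test.

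The study sequenced ribosomal RNA-depleted total RNA (RNAseq) from surgical biopsies of 13 meningiomas and from the meninges of 3 control dogs. By their labels, 6 tumors were grade I and 7 were grade II. The tumors came from older companion dogs of mixed and various breeds, and 11 were formalin-fixed and paraffin-embedded (FFPE) while a frozen portion was used for the other 2. The controls were leptomeninges of healthy research beagles, whose age is not given in the sources used here, frozen after euthanasia. The labels and the paper name no engineered allele or drug treatment for either group, and medication of the dogs is not reported. RNA of FFPE tissue was purified with the FormaPure kit and RNA of frozen tissue with Trizol. Breed and the state of the tissue changed together between the groups and cannot be told apart, and whether age differed too is not known. Site differed in part, since controls came from over the cerebral cortex while some tumors were cerebellar or spinal. The tumor dogs were spayed females and castrated males, and the sex of the controls is not given in the sources used here. Preservation and extraction differed for all but the 2 frozen tumors. Tumors that failed quality checks or lay apart in a preliminary principal components analysis had been left out by the authors. Libraries are numbered 0 to 12 among meningiomas and 0 to 2 among controls, and the deposited table does not tie these numbers to the named samples. Pairing them by their values was not done, so grade and preservation were not compared.

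Platelet-derived growth factors act through receptor tyrosine kinases at the cell surface. PDGFRL encodes a protein that resembles the extracellular, immunoglobulin-like part of such a receptor but lacks a kinase domain, and it has been proposed as a tumor suppressor. PIK3R1 encodes p85alpha, the regulatory subunit of class IA phosphoinositide 3-kinase (PI3K). This subunit stabilizes the catalytic subunit, holds it inactive at rest and docks the enzyme on activated receptors through its SH2 domains. In the dog RefSeq annotation of assembly UU_Cfam_GSD_1.0, PDGFRL lies on chromosome 16 between SLC7A2 and MTUS1, and PIK3R1 lies on chromosome 2 between CD180 and SLC30A5, so the genes are not neighbors.

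Depth ranged from 2138741 to 7358925 fragments on genes in the meningiomas (median 4095984) and from 2269204 to 7054614 in the controls. Meningioma libraries 2 and 12 stood apart from the rest on the third principal component, with scores of 70.3 and 67.5 against -34.9 to 14.9 for the other 14 libraries, and results that rest on them are also given without them. Of the marker lists, the members with an identifier all came from the study's own lists for this contrast, so they describe the tissue and are no independent check of it. The summed FPKM (fragments per gene, corrected for the length of the transcript and for library size) of 9 of 13 endothelial markers ran from 34.2 to 168 in meningiomas and from 414 to 666 in controls. For 3 of 8 mural cell markers the sums were 11.04 to 41.9 and 102 to 239, and for 5 of 10 fibroblast markers 85.1 to 194 and 566 to 869. Podoplanin (PDPN), the one arachnoid marker of 4 with an identifier, ran the other way, from 44.1 to 478 in meningiomas and from 16.9 to 44.6 in controls. None of these 18 markers was at 0 in a meningioma, and no immune, neural or erythroid marker had an identifier.

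In the RNAseq, PDGFRL, the receptor-like gene, was lower in every meningioma than in any control. In the 13 meningiomas its level was lowest at 7.42 FPKM (library 10), had a median of 23.0 FPKM and was highest at 42.0 FPKM (library 4). The 3 controls had 129, 131 and 128 FPKM. The controls lay almost on one value, the meningiomas were spread below them, and the lowest control was 3.04 times the highest meningioma. Against the control mean of 129 ± 1.43 FPKM (SD, n = 3), the meningiomas averaged 23.0 ± 10.2 FPKM (SD, n = 13). Single meningiomas kept between 5.74% and 32.5% of the control mean, with a median of 17.8%. The fitted log2 fold change from edgeR was -2.48 ± 0.32 (SE), or 5.57-fold lower. The paper also measured PDGFRL by quantitative PCR (qPCR) in most of these tumors and describes it as consistently underexpressed. Its supplement nevertheless marks some tumors as discordant between qPCR and RNAseq for this gene. Across tumors the methods showed almost no relation for PDGFRL, which concerns variation among tumors and not tumors against controls. By the qPCR values in the supplement, most of the measured tumors also lay below all controls, but not every one. The full separation was thus seen in the RNAseq values only. In bulk tissue, fewer cells that carry a transcript and less of it per cell cannot be told apart, and this holds for every level given here.

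The depth behind PDGFRL was modest. Its values rested on 29 to 301 fragments in meningiomas and on 584, 1075 and 1642 fragments in controls. In library 10, which had the lowest total of all libraries, the 29 fragments gave an exact 95% Poisson interval of 4.97 to 10.7 FPKM, which covers counting error only. This interval ended below the level of library 5, the next lowest at 11.9 FPKM, whose own interval began at 9.41 FPKM. The intervals of those lowest libraries thus overlapped, and their order was not tested. Libraries 4 and 7, at 42.0 and 41.9 FPKM, could not be ordered, but both intervals began above 36 FPKM and lay clear of library 1, the third highest at 27.7 FPKM with an upper bound of 31.7 FPKM.

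PIK3R1, the PI3K regulatory subunit, was also lower in every meningioma than in any control, with a narrower gap. Its level was lowest at 8.91 FPKM in meningioma library 12, had a median of 16.2 FPKM and was highest at 45.2 FPKM in library 7. The 3 controls had 146, 69.1 and 73.2 FPKM. Here 1 control stood well above the other 2, and the lowest control was 1.53 times the highest meningioma. The group means were 19.2 ± 9.58 FPKM (SD, n = 13) in meningiomas and 96.1 ± 43.4 FPKM (SD, n = 3) in controls. Single meningiomas had between 9.27% and 47.0% of the control mean, with a median of 16.9%. The log2 fold change was -2.32 ± 0.34 (SE), or 4.99-fold lower, and without control library 0 it was -1.89 ± 0.38. Without meningioma libraries 2 and 12 it was -2.20, against -2.48 for PDGFRL under the same removal.

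PIK3R1 rested on 263 to 1100 fragments in meningiomas and on 1283, 2558 and 7709 in controls, so counting error was smaller than for PDGFRL. The highest level, in library 7, had an interval of 42.5 to 47.9 FPKM, clear of library 4 at 30.6 FPKM with an upper bound of 32.7 FPKM. Most of the other libraries formed a run from 11.2 to 21.9 FPKM in which neighbors overlapped within counting error.

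**Figure D1:**
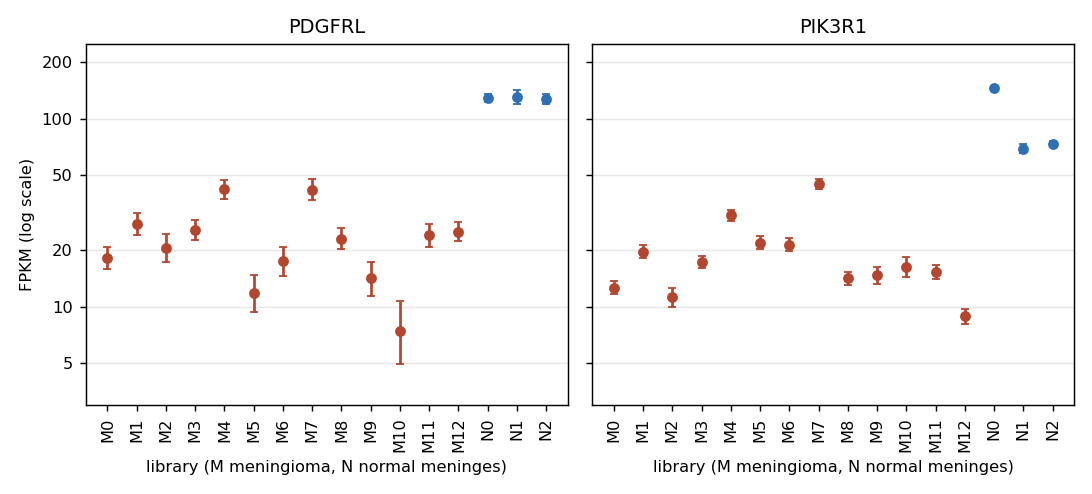
Level of PDGFRL (left) and PIK3R1 (right) in each library, in FPKM on a log scale, for 13 meningiomas (M0 to M12, red) and 3 normal meninges (N0 to N2, blue), with exact 95% Poisson intervals as bars. All meningiomas lie below all controls for both genes, the controls are tightly grouped for PDGFRL, and N0 is above N1 and N2 for PIK3R1.

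Both genes had 13 of 13 meningiomas below all 3 controls, so the 2 frozen tumors, whichever libraries they are, also lay below the frozen controls. This pattern was held by 3.65% of the 14345 genes tested. Both were also among the genes with an adjusted p under 0.05 in the edgeR quasi-likelihood test, which called 4.86% of tested genes in either direction and 3.55% as lower in meningioma. Since both were selected on this contrast, nothing is read from their place in these counts. By size of fall among the 83 listed genes, PDGFRL stood at rank 51 and PIK3R1 at rank 59, so neither was among the extremes of that list. Among meningiomas, the SD of log2 normalized counts was 0.69 for PDGFRL and 0.61 for PIK3R1, the 15th and 10th lowest of the 83 genes, for which the median SD was 0.93. Within the list both genes thus sat on the less variable side, in a ranking that was not matched for fragment number.

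The spread between controls differed between the genes. For PDGFRL the coefficient of variation (CV) of FPKM over the controls was 1.11%, below the 3.30% that counting error alone gives at these fragment numbers. Of the 1499 tested genes with control fragments within 2-fold of those of PDGFRL, 99.5% had a higher CV, and their median was 15.0%. For PIK3R1 the CV was 45.1% against 1.76% from counting, and 16.1% of 248 genes of like fragment numbers had a higher one (median 20.6%). Both CVs rest on 3 libraries and on the authors' size factors. Scaled to library totals instead, PDGFRL in controls 0, 1 and 2 stood at 233, 257 and 241, which is a wider spread. On that scale PIK3R1 stood at 1093, 565 and 573, with control 0 again the highest. Counting error alone would give more spread than the FPKM of PDGFRL showed, so that closeness is at least in part chance. Nothing is read from its place among the 1499 genes. Among meningiomas the genes were alike in spread, with CVs of 44.6% for PDGFRL and 50.0% for PIK3R1, far above the 7.60% and 4.26% from counting.

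The control behind the wide spread of PIK3R1 was library 0, at 2.05 times the mean of the other 2 controls. The same ratio was 1.00 for PDGFRL and had a median of 0.995 over all tested genes. A ratio at least as high as that of PIK3R1 occurred in 4.90% of tested genes and in 16 of the 83 listed genes (19.3%). MYOC, at 1042 FPKM in control 0 against 50.4 and 187 FPKM in the others, had the highest ratio of the list (8.79), and THBS1, which encodes the matrix protein thrombospondin-1, followed at 6.64. The list itself was chosen on these libraries.

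Since FPKM is a level per transcript length, the genes can be set against each other within a library. The ratio of PDGFRL to PIK3R1 FPKM ran from 0.458 in meningioma library 10 to 2.81 in library 12, with a median of 1.41. PDGFRL was the higher of the pair in 8 of 13 meningiomas and in 2 of 3 controls, where the ratio was 0.884, 1.89 and 1.75. On the log2 scale the ratio was 0.25 ± 0.72 (SD, n = 13) in meningiomas and 0.51 ± 0.60 (SD, n = 3) in controls, so the ranges overlapped. At the ends of the ratio, library 10 was last of 13 for PDGFRL and the seventh for PIK3R1, while library 12 was the fifth for PDGFRL and last for PIK3R1. By rank the widest disagreement was in library 5, at rank 12 for PDGFRL and rank 3 for PIK3R1. Libraries 4 and 7 held the top ranks for both genes.

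**Figure D2:**
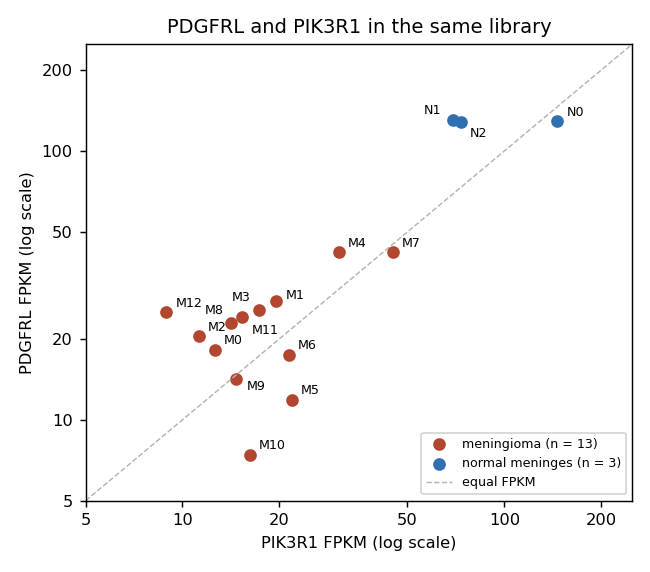
PDGFRL against PIK3R1 level in the same library, in FPKM on log axes, for meningiomas (red, n = 13) and normal meninges (blue, n = 3), with a dashed line at equal FPKM. M4 and M7 are high for both genes among meningiomas, M12 and M10 lie at ratios of 2.81 and 0.458, and the controls differ along the PIK3R1 axis only.

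Whether the genes varied together among tumors was tested in the 13 meningiomas alone, on log2 normalized counts, since the groups form separate clusters. Pearson's r was 0.41 (two-sided permutation p = 0.163, Benjamini-Hochberg adjusted p = 0.375 over 11 relations). Spearman's rho was 0.28 (permutation p = 0.355, adjusted p = 0.650). Without libraries 4 and 7, the farthest from the median of PIK3R1, r was -0.26 (n = 11, permutation p = 0.444), so the positive sign rested on those libraries. Without libraries 2 and 12, r was 0.58 (permutation p = 0.0634, adjusted p = 0.312). No shared variation of the pair was thus detectable among these tumors. Of all tested genes, 12.5% had an r with PDGFRL, and 14.4% an r with PIK3R1, at least as high as the pair had with each other.

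None of the other 10 relations passed adjustment, which set each gene against depth and the mean log2 level of the 4 marker lists. With depth, r was 0.45 for PDGFRL (permutation p = 0.127) and -0.45 for PIK3R1 (permutation p = 0.127), both with an adjusted p = 0.375. Leaving out libraries 0 and 10, the farthest from the median depth, gave 0.20 and -0.60. For PDGFRL the marker lists gave r = 0.19 (endothelial), 0.15 (mural), 0.39 (fibroblast) and -0.17 (PDPN), with rho of 0.11, 0.01, 0.53 and -0.29. The rho of 0.53 with fibroblast markers had a permutation p = 0.0665 (adjusted p = 0.370). For PIK3R1 they gave 0.26, 0.49, 0.30 and -0.38 in the same order, with rho of 0.15, 0.16, 0.05 and -0.36. The value of -0.38 with PDPN was -0.09 without libraries 2 and 12. The value of 0.49 with mural markers had a permutation p = 0.0897 and was 0.16 without library 7. Whether less vascular or fibroblast tissue had a part in the lower levels was not tested.

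**Figure D3:**
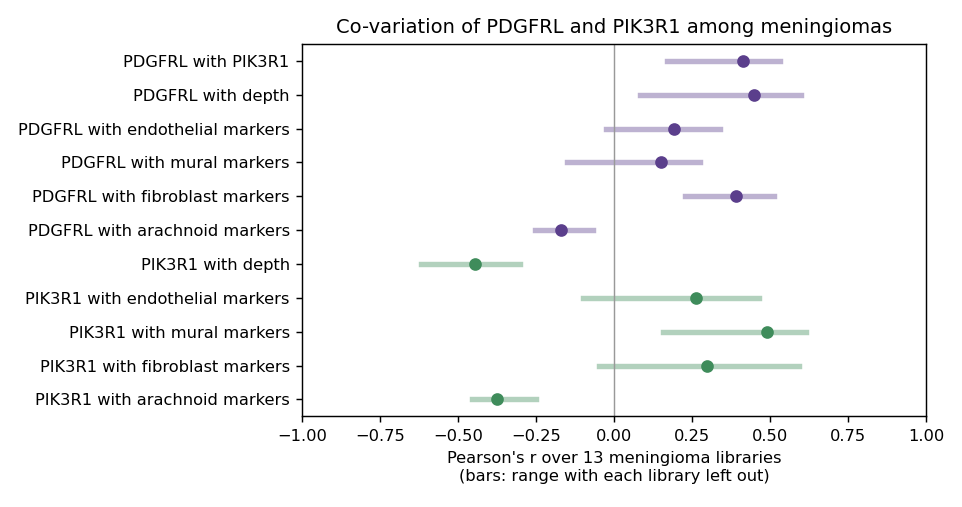
Pearson's r over the 13 meningioma libraries between each gene and the other gene, depth or a marker list, with bars for the range when each library is left out in turn. The r of PDGFRL with PIK3R1 is 0.41 and its bar runs from 0.17 to 0.53, and no relation passed adjustment.

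Among the 123 other tested genes paired with a symbol, those most like PDGFRL across meningiomas were CCDC80 (r = 0.66), COL16A1 (0.66), GAS6 (0.62), PTGIR (0.60) and CACNA2D2 (0.60). CCDC80 encodes a secreted matrix-associated protein, COL16A1 a collagen chain, GAS6 a ligand of receptor tyrosine kinases of the AXL family, PTGIR the prostacyclin receptor and CACNA2D2 a calcium channel subunit. All 5 stand on the list of underexpressed genes, which holds 83 of the 124 genes with a symbol, so nothing is read from this. Of all tested genes, 1.55% (CCDC80) to 3.24% (CACNA2D2) had an r with PDGFRL at least as high as these 5. Without library 7 their r with PDGFRL was 0.55 to 0.68, and without libraries 2 and 12 it was 0.66 to 0.71. The lowest values were those of WNT5A, a WNT ligand (-0.62), RIMS1, an active-zone scaffold of synapses (-0.49), and LIMCH1, an actomyosin regulator (-0.49). WNT5A and RIMS1 stand on the list of overexpressed genes and LIMCH1 on the other. Without library 7 the values of WNT5A, RIMS1 and LIMCH1 were -0.66, -0.52 and -0.75, so LIMCH1 became the lowest of these 3. Without libraries 2 and 12 they were -0.63, -0.59 and -0.50.

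For PIK3R1 the most alike was KLF5 (r = 0.78), a zinc-finger transcription factor which stands on the list of overexpressed genes. KLF5 ran from 52.2 to 190 FPKM in meningiomas and from 8.56 to 13.7 FPKM in controls. Across meningiomas it was thus highest with PIK3R1, while between the groups it differed in the opposite direction, with a log2 fold change of 3.23 ± 0.37 (SE). MYCT1 (0.71), ABCA8 (0.70), PALD1 (0.69) and PRKD1 (0.69) followed, and all 4 are listed as underexpressed, as are most genes with a symbol. Of all tested genes, 0.383% had an r with PIK3R1 at least as high as KLF5. For the other 4 this share was 1.115% (MYCT1) to 1.527% (PRKD1). ABCA8 encodes a lipid transporter and PRKD1 protein kinase D1. Without library 7, r was 0.64 for KLF5 and 0.49 to 0.71 for the other 4. Without libraries 2 and 12, r was 0.64 for KLF5 and 0.50 to 0.73 for the other 4. The lowest were KLKB1, plasma prekallikrein (-0.59), CTPS1, CTP synthase (-0.49), and PDPN (-0.38), and without library 7 they were -0.38, -0.61 and -0.41. Without libraries 2 and 12 they were -0.76, -0.41 and -0.09. These are the extremes of 123 values over 13 libraries and are given as a description. None of the 5 genes most like one member was among the 5 most like the other. Sets of 5 among 123 genes often share none, so nothing is read from this.

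The median r with the underexpressed genes was 0.06 for PDGFRL and 0.32 for PIK3R1, against 0.01 and 0.02 over all tested genes. The median was higher for PIK3R1, and this difference was not tested.

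Other genes of growth factor and PI3K signaling could be read only where the study's lists pair an identifier with a symbol. This left 8 of 61 genes of 3 lists, all of them from the underexpressed list and so chosen on these samples. Of the 6 PDGF ligands and receptors, none had an identifier, nor had any other class IA PI3K subunit, so the levels of the partners of both genes were not analysed here. All 8 readable genes had an adjusted p under 0.05 as lower in meningioma, against 3.55% of tested genes, with a median log2 fold change of -2.46 against 0.06 over all tested genes. The selection fixed that direction.

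Among ligands, KITLG, the ligand of the KIT receptor, ran from 0.745 to 29.0 FPKM in meningiomas and was 68.4, 32.5 and 35.1 FPKM in controls. GAS6 ran from 2.12 to 35.6 FPKM and was 134, 45.8 and 38.9 FPKM. Both resembled PIK3R1 in having control 0 above the others. IGFBP6, an insulin-like growth factor binding protein, was the most abundant, with 78.8 to 312 FPKM in meningiomas and 421, 854 and 1245 FPKM in controls, and control 0 was the lowest of these.

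The receptors were FLT1, a VEGF receptor, and the endothelial angiopoietin-pathway kinases TEK and TIE1. FLT1 had a median of 6.21 FPKM in meningiomas and 46.5 to 91.6 FPKM in controls, TEK 9.07 and 44.3 to 72.8 FPKM, and TIE1 1.48 and 11.7 to 25.3 FPKM. TEK and TIE1 are also on the endothelial marker list. Of the regulators near PI3K, PREX2, a Rac exchange factor, had a median of 7.20 FPKM in meningiomas and 17.9 to 36.5 FPKM in controls. ARAP3, a GTPase-activating protein that responds to the PI3K product, had 3.40 FPKM and 13.9 to 27.3 FPKM. Their log2 fold changes were -1.91 ± 0.39 and -2.21 ± 0.29 (SE), beside -2.32 ± 0.34 for PIK3R1, and those of FLT1 and TIE1 were -3.02 ± 0.36 and -3.22 ± 0.37.

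**Figure D4:**
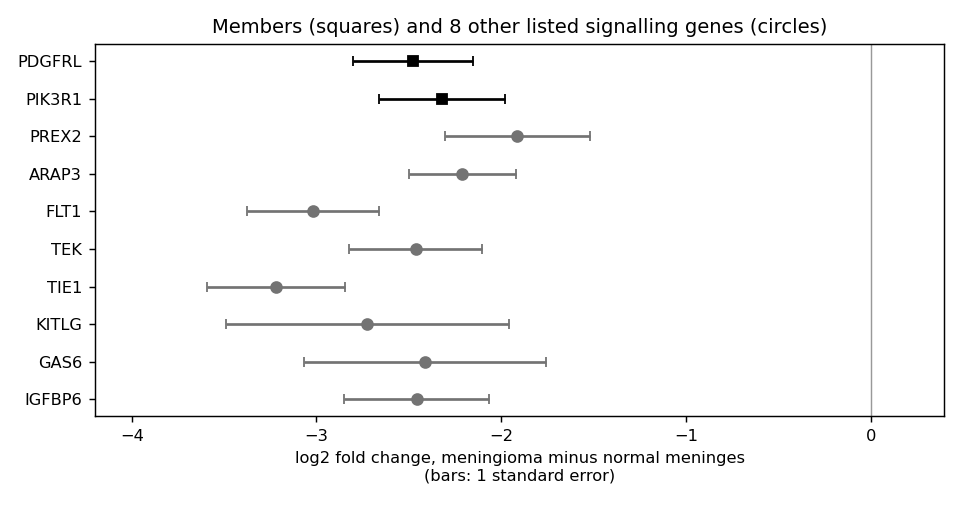
Log2 fold change of meningioma against normal meninges from edgeR for PDGFRL and PIK3R1 (squares) and the 8 other readable signaling genes (circles), with bars of 1 standard error. All 10 lie between -3.22 and -1.91, and all were selected on this contrast.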

How the data were processed

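RNAseq reads of 13 canine meningiomas and 3 normal meninges were trimmed by the authors with cutadapt 1.8 and freed of ribosomal and small RNA matches, mapped to Ensembl CanFam3 with TopHat2 2.0.13 and quantified with Cuffdiff 2.2.1 (versions per the submitters' processing notes and the labels). The deposited table holds estimated counts of fragments per gene and library, a signal that the authors made by dividing these by a size factor, and FPKM, which the authors computed per transcript length. Condition C was read as meningioma since it has 13 read groups, and condition N as normal meninges. Estimated counts (0.347% not whole, none in the members) were rounded.

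Only genes that reached 10 fragments in 3 or more libraries were fitted (n = 14345), using TMM factors and the quasi-likelihood F test from edgeR (version 4.0.16, R 4.3.3), with Benjamini-Hochberg adjustment over all of them. Each SE was taken as the size of the log2 fold change over the square root of its F value. Correlations used log2 counts scaled to library size (prior count 2) and 100000 permutations. As alternatives, DESeq2 1.42.0, limma 3.58.1 on log2 FPKM with a pseudocount of 1 or 0.1, other size factors and filters, and fits with libraries left out were run. The fits and correlations were tested on simulated data. Poisson intervals (95%) cover counting error only. Each library came from a separate dog, so p-values measure the spread between dogs.

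Symbols came from the study's lists, with 124 identifiers. Named genes were the 2 members, the 5 highest and 3 lowest by r with each among genes with a symbol, and pathway genes with an adjusted p under 0.05. MYOC and THBS1 were named after their values were seen. The members and lists were chosen with earlier results of these data known.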

Additional observations from a re-analysis of the deposited data

How the results depend on the processing

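The log2 fold changes of both genes kept their direction under all 26 alternatives. Those reuse the libraries on which the genes were chosen, so they are no independent support. The values ran from -2.62 to -2.40 for PDGFRL and from -2.50 to -1.89 for PIK3R1, whose lowest size was that without control library 0. The log2 ratio of PDGFRL to PIK3R1, meningioma minus normal meninges, stayed negative, from -0.61 to -0.06. The number of genes called was 697, against 1364 with DESeq2 and 169 to 931 when each library was left out in turn, with 245, 350 and 169 without control 0, 1 and 2. The other pathway genes called were 8, and 5 to 6 with each control left out, of which the lowest was without control 2. The share of calls higher in meningioma was 27.0% in the report, 48.5% with DESeq2, 21.1% with upper-quartile factors and 15.1%, 12.3% and 7.10% without control 0, 1 and 2.

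Relations among meningiomas changed sign in 8 cases, none with an adjusted p under 0.05. Leaving out the 2 libraries farthest from the median gave -0.256 for PDGFRL with PIK3R1 (0.168 to 0.531 with each library left out), -0.0547 and -0.0251 for PDGFRL with endothelial and mural markers, and -0.436 for PIK3R1 with fibroblast markers. With each library left out, PDGFRL had -0.0270 to 0.338 with endothelial and -0.151 to 0.276 with mural markers, and PIK3R1 had -0.0991 to 0.463 with endothelial and -0.0486 to 0.591 with fibroblast markers, with the lowest value in each case that without library 7. The cause was not tested.

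No paired analysis was possible because the deposited table does not tie its library numbers to the numbered samples of the labels, and libraries were not paired with samples by their values. Tumors and controls also came from different dogs, so the design would hold no pairs even with every library identified. A planned comparison of apparent transcript length was void, since scaled fragments divided by FPKM were constant over the 16 libraries for each gene (7.61 for PDGFRL and 31.6 for PIK3R1). With 29 fragments at the lowest, the counting intervals of PDGFRL levels below about 12 FPKM overlapped, and their order was not tested. The removal of library 7 from the lists of genes most like each member was chosen after seeing the data.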
